A study of Mus musculus with 3 samples.

Results

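Polycomb, trithorax and DNA methylation genes encode proteins that write, read and remove chromatin marks, or that move nucleosomes. The members were a list of 46 genes, and each was represented by every probe set to which the platform annotation gave its symbol alone. That rule gave 119 of 34945 probe sets with 1 symbol, and 46 of 18193 genes measured. The members were described in 5 groups: Polycomb repressive complex 2 (PRC2, 10 genes), Polycomb repressive complex 1 (PRC1, 15 genes), the Kmt2 and Kdm6 enzymes with shared Kmt2 subunits (7 genes), DNA methylation (8 genes) and remodelling (6 genes).

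The RNA came from mouse fetal kidney cells that carried the Tg(Meis1-EGFP)FO156Gsat transgene on a CD-1 background, at E15.5 (Theiler stage 23), sex unknown. Each of the 3 arrays held 1 pool of approximately 20 kidneys, dissociated with trypsin and sorted by flow cytometry for green fluorescence. All 3 belong to 1 group, so each gene was asked only if it exceeded background, and no condition could be compared with another. The labels give the sorted cells 2 names, peripheral blastema for the series and nephrogenic interstitium for the samples. The transgene puts EGFP under Meis1 control, so the gate collected whichever cells made that reporter. Pooling hid differences between animals. The labels do not state separate litters for the pools. The p-values then reflect no more than the spread of these 3 samples, and that spread may be technical.

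PRC2 places the repressive methyl mark on histone H3, and PRC1 binds that mark and adds ubiquitin to histone H2A. Trithorax proteins of the Kmt2 family methylate a different lysine of H3 at active promoters and enhancers, and Kdm6 enzymes erase the PRC2 mark. Dnmt enzymes methylate cytosine, and Tet enzymes oxidise the methyl group. In mouse kidney, genetic studies have tied PRC2, Dnmt1 and class I histone deacetylases to the upkeep of nephron progenitors.

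The promoters of 4 of the 7 members that hold 8-base words of E2F factors are shown. These factors drive genes of the cell division cycle. Suz12, Phf19 and Arid1a also hold such a word and are not shown. Ezh2 encodes the PRC2 enzyme, and Dnmt1, Uhrf1 and Hells take part in the upkeep of DNA methylation. Each is a window of 300 bases from RefSeq, build GRCm38.p6, from 250 bases before the annotated start to 50 after it, 5′ to 3′ on the strand of the gene. Capitals mark TTTCCCGC, TTTCGCGC, TTTGCCGC or TTTGGCGC, or the reverse complement of one of them. Ezh2 and Hells have 1 window, Uhrf1 has 2 and Dnmt1 has 3, and only the window that holds a word is shown. Ezh2 lies at chr6:47594981-47595280 on the minus strand, Dnmt1 at chr9:20952574-20952873 on the minus strand, Uhrf1 at chr17:56304063-56304362 on the plus strand and Hells at chr19:38930740-38931039 on the plus strand.
Ezh2: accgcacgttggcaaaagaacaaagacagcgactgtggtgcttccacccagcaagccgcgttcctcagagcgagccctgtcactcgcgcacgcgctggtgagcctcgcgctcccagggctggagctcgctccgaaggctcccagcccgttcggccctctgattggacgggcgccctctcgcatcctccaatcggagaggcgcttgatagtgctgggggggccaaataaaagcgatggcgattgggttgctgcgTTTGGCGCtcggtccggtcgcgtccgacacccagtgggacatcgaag
Dnmt1: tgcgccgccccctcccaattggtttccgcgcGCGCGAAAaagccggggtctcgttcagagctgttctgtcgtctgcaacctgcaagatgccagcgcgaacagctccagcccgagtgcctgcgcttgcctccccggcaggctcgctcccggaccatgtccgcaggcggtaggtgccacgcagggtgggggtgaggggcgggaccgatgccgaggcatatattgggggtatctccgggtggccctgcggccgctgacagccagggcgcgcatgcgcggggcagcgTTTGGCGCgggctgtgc
Uhrf1: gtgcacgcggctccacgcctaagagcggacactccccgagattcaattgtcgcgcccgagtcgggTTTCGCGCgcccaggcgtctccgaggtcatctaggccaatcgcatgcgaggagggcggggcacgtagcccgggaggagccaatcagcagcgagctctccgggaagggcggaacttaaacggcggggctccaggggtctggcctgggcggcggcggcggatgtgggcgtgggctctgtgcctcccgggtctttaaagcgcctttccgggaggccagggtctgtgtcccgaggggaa
Hells: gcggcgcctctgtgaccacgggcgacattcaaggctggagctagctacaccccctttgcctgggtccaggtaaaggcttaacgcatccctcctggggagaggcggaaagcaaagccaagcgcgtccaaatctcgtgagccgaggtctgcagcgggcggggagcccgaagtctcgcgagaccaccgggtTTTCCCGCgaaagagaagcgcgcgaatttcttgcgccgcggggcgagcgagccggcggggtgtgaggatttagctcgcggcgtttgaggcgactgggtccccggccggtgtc

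Markers of the labelled cell type were checked first. Of the nephrogenic interstitium markers 9 of 9 were above background, Foxd1 by 7.47, Meis1 by 6.84 and Meis2 by 7.60 log2 units. The sort used a Meis1 reporter, so the Meis1 value is no independent check of the label. Cap mesenchyme markers were above background in 6 of 8 cases, against 57.3% of all genes. Six2 lay at 1.86 and Cited1 at -4.20, and Gdnf lay at 7.37, Sall1 at 6.12, Itga8 at 5.47 and Eya1 at 3.47. Ureteric bud markers were above in 4 of 7 cases (57.1%), with Epcam at 4.13, Krt18 at 2.19, Wnt11 at 2.06 and Ret at -0.34. Early nephron and podocyte markers were above in 2 of 7 cases. Endothelial markers were above in 5 of 7 cases (71.4%), with Tek at 2.86, Emcn at 1.56 and Pecam1 at -1.64. Macrophage and leukocyte markers were above in 1 of 6 cases (Ptprc at -1.05), erythroid markers in 1 of 5, neural markers in 3 of 5 and proliferation genes in 7 of 7. In bulk RNA, fewer cells of a type and less RNA per cell cannot be told apart.

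Of the 46 members, 41 were above background (89.1%), against 57.3% of all 18193 genes (10432 genes). Background on each array was the 95th percentile of 72 chemosensory receptor genes, which are used in sensory neurons, and equalled a signal of 134.9, 184.9 and 168.3 in replicates 1, 2 and 3. A gene took its brightest probe set, and its log2 signal minus that level was tested above 0 with limma, one-sided, with adjusted p under 0.05 as the call. Of 59 measured genes listed as restricted to other tissues, 6 were also called. The median distance above background was 5.32 log2 units for the members and 1.52 for all genes. Genes with more probe sets were called more often, and all genes weighted to the probe set numbers of the members would give 70.4%. Among members with 1 probe set 4 of 7 were called, against 39.2% of all such genes, and with 2 probe sets 19 of 20, against 68.1%. With 3 probe sets 9 of 10 were called, against 80.4%, and with 4 or more 9 of 9, against 88.6%, so for genes with 3 or more probe sets the members lay near the shares of all genes.

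**Figure D1:**
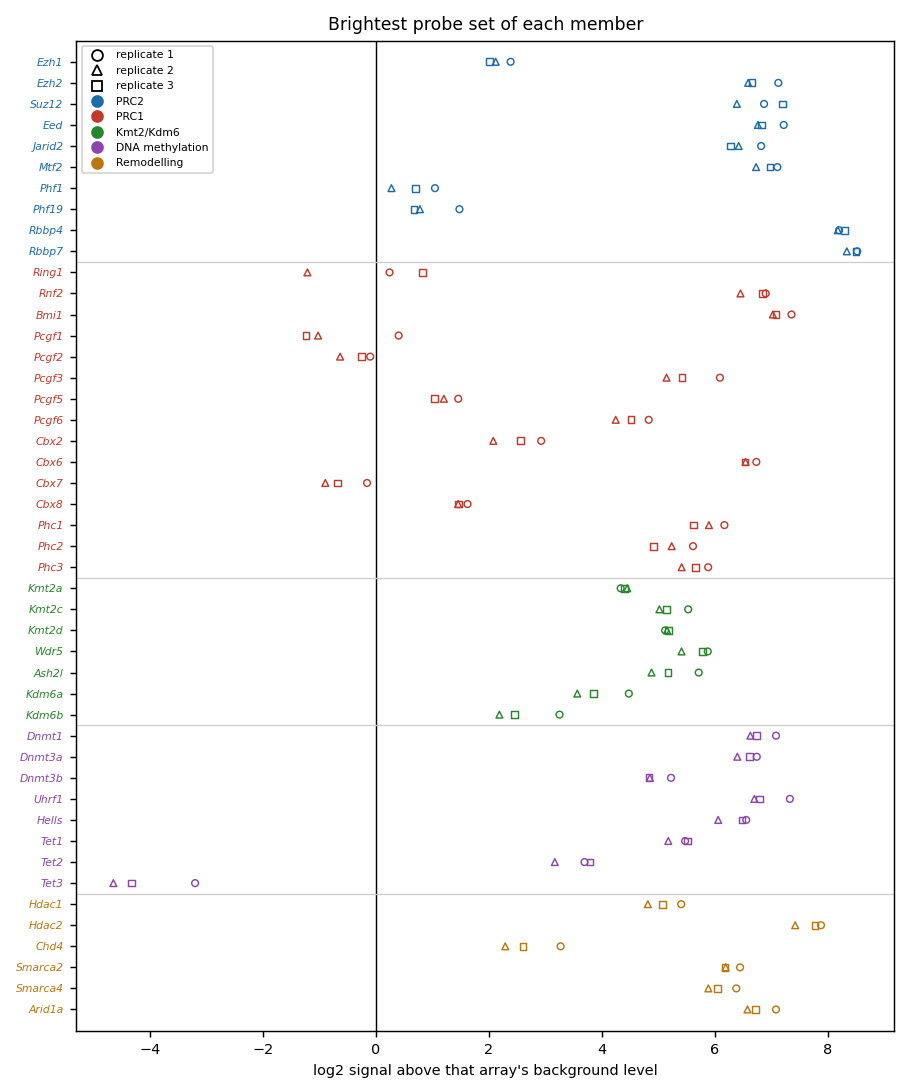
Distance of the brightest probe set of each member from the background level of its own array (log2 units, vertical line at 0), 1 symbol per array and colours by group. The symbols of most members lie to the right of the line on every array, and those of Ring1, Pcgf1, Pcgf2, Cbx7 and Tet3 do not. Horizontal positions of different genes also depend on probe affinity and are not ranks of expression.

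In PRC2 10 of 10 members were called, against 57.3% of all genes and 70.4% weighted to the probe set numbers of the 46 members. With background at the 99th percentile of the chemosensory receptor genes, 8 of 10 were called. Of the PRC2 probe sets 22 of 31 were called (71%, against 48.7% of all 34945 probe sets). Ezh2, the methyltransferase of the complex, had signals of 18769, 17775 and 16948 in replicates 1, 2 and 3. It lay 6.79 ± 0.22 log2 units above background (SE, n = 3, limma adjusted p = 8.03e-07). Its 3 deposited values were close together, with a mean of 17830 ± 912 (SD), but this closeness depended on how arrays were centred. Ezh1, the paralogous methyltransferase, had signals of 704, 803 and 681 and lay 2.17 ± 0.21 above (limma adjusted p = 6.04e-05). That call rested on 1 of 4 probe sets, and with the mean over probe sets Ezh1 lay at -0.071. Probes differ in affinity, so the levels of the 2 enzymes were not set against each other.

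The other core subunits were also called. Suz12, which holds the complex together, had signals of 15763, 15471 and 24591 and lay 6.82 ± 0.24 log2 units above background, or 5.93 without cross-hybridising probe sets. Eed, which binds the finished mark and stimulates the enzyme, had signals of 20060, 20028 and 19144 and lay 6.94 ± 0.21 above. The Eed call rested on 1 of 2 probe sets. The histone-binding proteins Rbbp4 and Rbbp7, which also serve in deacetylase complexes, lay 8.22 ± 0.20 and 8.45 ± 0.20 above. The brightest probe set of each is one that the maker marks as able to cross-hybridise, and without such probe sets the distances were 5.29 for Rbbp4 and 8.26 for Rbbp7.

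The accessory subunits that guide PRC2 to its targets included clear and marginal calls. Jarid2, a DNA-binding cofactor, lay 6.50 ± 0.22 log2 units above background and had 3 of 3 probe sets called. Without cross-hybridising probe sets it lay 1.66 above. Mtf2, one of the 3 Polycomb-like proteins that bind unmethylated CG-rich DNA, had signals of 18559, 19594 and 21185, lay 6.94 ± 0.21 above and had 5 of 6 probe sets called. Its relatives lay close to the threshold: Phf1 had signals of 278, 224 and 274 and lay 0.67 ± 0.24 above (limma adjusted p = 0.0265). Phf19 had signals of 376, 317 and 269 and lay 0.98 ± 0.25 above (limma adjusted p = 0.00714), through 1 of 2 probe sets. The Phf1 call was lost without replicate 1 (0.49, limma adjusted p = 0.0808) and without replicate 3 (0.66, limma adjusted p = 0.141).

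Other PRC2 partners were above background in 2 of 4 cases, against 57.3% of all genes. Of their probe sets 6 of 11 were called (54.5%, against 48.7% of all probe sets). Aebp2, a zinc finger cofactor, lay 7.50 log2 units above, and Lcor, whose locus also encodes a PRC2 partner, 1.60 above. Epop lay at -5.27 and the PRC2 inhibitor Ezhip at -2.53, neither called.

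PRC1 was the group with the most members not above background. In it 11 of 15 members were called (73.3%), close to the 70.4% of all genes weighted to the probe set numbers of the 46 members and against 57.3% unweighted. The probe sets called were 16 of 34 (47.1%), a share near the 48.7% of all probe sets. With the mean over the probe sets of a gene in place of the brightest, 7 of 15 were called. Among the ubiquitin ligases, Rnf2 had signals of 16084, 16179 and 19232 and lay 6.73 ± 0.21 log2 units above background. Of its 5 probe sets 2 were called, and with the mean over probe sets it lay at 0.49 and was not called. Ring1, its paralogue, had signals of 159, 80 and 297, and lay at -0.05 ± 0.40 (limma adjusted p = 0.872). The Ring1 signals spanned the background level, being above it on replicates 1 and 3 and below it on replicate 2, and it has 1 probe set.

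The Pcgf proteins pair with the ligase and set which form of PRC1 it joins. Bmi1 had signals of 22074, 24077 and 22759, lay 7.15 ± 0.21 log2 units above background and had 2 of 2 probe sets called. Pcgf2, the closest relative of Bmi1, had signals of 126, 119 and 141 and lay at -0.33 ± 0.22, below background on every array, and neither of its 2 probe sets was called. Pcgf1, of the form that contains Bcor, had signals of 178, 91 and 71 and lay at -0.62 ± 0.36. Pcgf3 lay 5.55 ± 0.26 above, Pcgf5 1.23 ± 0.21 (limma adjusted p = 0.00117) and Pcgf6 4.53 ± 0.22. Of these 3, Pcgf6 had 1 of 3 probe sets called, Pcgf5 1 of 3 and Pcgf3 2 of 3.

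Cbx proteins bind the PRC2 mark through a chromodomain. Cbx6 had signals of 14336, 17216 and 15582 and lay 6.60 ± 0.20 log2 units above background. That probe set can cross-hybridise, and without such probe sets Cbx6 lay 2.08 above, on a probe set with widely spread signals of 1543, 342 and 605. Cbx2 lay 2.52 ± 0.24 above and Cbx8 1.51 ± 0.20, each through 1 of 2 probe sets. Cbx7 had signals of 121, 99 and 105 and lay at -0.58 ± 0.24, and none of its 3 probe sets was called. The polyhomeotic proteins, which join PRC1 into larger assemblies, were all called, with Phc1 at 5.89 ± 0.22, Phc2 at 5.25 ± 0.23 and Phc3 at 5.65 ± 0.21. Phc3 had 1 of 2 probe sets called. Without cross-hybridising probe sets Phc2 lay 4.36 above. A member that was not called is not shown to be absent, since a probe set can fail.

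Other PRC1 subunits were called in 7 of 8 cases, against 57.3% of all genes. They included Yaf2 (6.93 log2 units), Kdm2b (7.02), which brings PRC1 to unmethylated CG-rich DNA, Bcor (5.23) and Scmh1 (2.79). Bcorl1 lay at 0.31 and was not called. Of the probe sets of these 8 genes 16 of 23 were called (69.6%, against 48.7% of all probe sets).

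**Figure D2:**
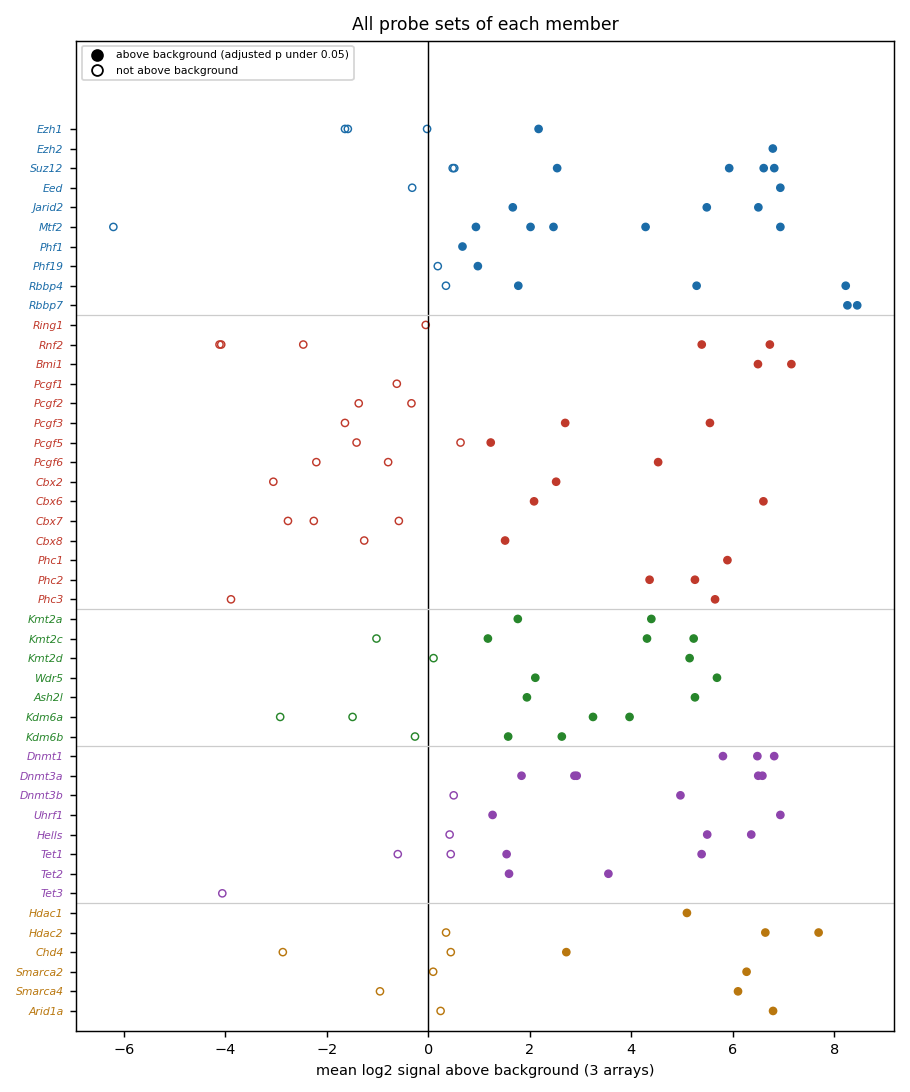
Mean distance from background over the 3 arrays (log2 units) for each of the 119 probe sets of the members, with filled points for probe sets above background and open points for the rest. Open points share a row with filled points in 25 members, and 16 members have filled points only.

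In the Kmt2 and Kdm6 group 7 of 7 members were called, against 57.3% of all genes. All of them had 2 or more probe sets, and of all genes with 2, 3 and 4 or more, 68.1%, 80.4% and 88.6% were called. Of their probe sets 14 of 19 were called (73.7%, against 48.7% of all probe sets). Kmt2a, a histone methyltransferase of Hox gene loci, had signals of 2714, 4034 and 3563 and lay 4.39 ± 0.20 log2 units above background (limma adjusted p = 1.88e-06). Kmt2c and Kmt2d, which act at enhancers, lay 5.23 ± 0.22 and 5.15 ± 0.20 above, with 3 of 4 and 1 of 2 probe sets called. The shared subunits Wdr5 and Ash2l lay 5.69 ± 0.21 and 5.25 ± 0.24 above, each with 2 of 2 probe sets called.

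The demethylases of the PRC2 mark were also called. Kdm6a had signals of 3000, 2186 and 2437 and lay 3.96 ± 0.25 log2 units above background, with 2 of 4 probe sets called. Kdm6b had signals of 1282, 841 and 925 and lay 2.63 ± 0.27 above (limma adjusted p = 8.93e-05). Its brightest probe set can cross-hybridise, and without it the distance was 1.57. Other subunits of Kmt2 complexes were called in 12 of 12 cases, against 57.3% of all genes. Among them were Kmt2b (4.62), Setd1a (2.19), Setd1b (4.83) and Rbbp5 (5.11). Of the probe sets of these 12 genes 22 of 36 were called (61.1%, against 48.7% of all probe sets).

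In the DNA methylation group 7 of 8 members were called (87.5%), against 57.3% of all genes. All genes weighted to the probe set numbers of the 46 members gave 70.4%. Of the probe sets of this group 17 of 22 were called (77.3%, against 48.7% of all probe sets). Dnmt1, which copies methylation onto the new strand after replication, had signals of 18251, 18259 and 17952. It lay 6.81 ± 0.21 log2 units above background (limma adjusted p = 7.78e-07) with 3 of 3 probe sets called. The brightest Dnmt1 probe set can cross-hybridise, and the only one not so marked lay 6.48 above. Uhrf1, which brings Dnmt1 to hemimethylated sites, had signals of 21637, 19171 and 18560 and lay 6.94 ± 0.23 above. Hells, a remodelling helicase needed for methylation of repeats, had signals of 12662, 12308 and 15000 and lay 6.36 ± 0.22 above. The genes that maintain methylation were thus all called, each with at least 2 probe sets.

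The enzymes that set new methylation were called as well. Dnmt3a had signals of 14411, 15563 and 16454, lay 6.58 ± 0.21 log2 units above background and had 5 of 5 probe sets called. Dnmt3b had signals of 5034, 5325 and 4795 and lay 4.97 ± 0.21 above, through 1 of 2 probe sets. Dnmt3l, the germline cofactor of both, lay at -2.16 and was not called.

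The Tet oxidases differed in their calls. Tet1 had signals of 5985, 6673 and 7660 and lay 5.38 ± 0.21 log2 units above background, with 2 of 4 probe sets called. Tet2 had signals of 1742, 1659 and 2325 and lay 3.55 ± 0.23 above. Tet3 had signals of 14.67, 7.38 and 8.4 on its only probe set and lay at -4.06 ± 0.32, below background on all 3 arrays. Other DNA methylation genes were called in 6 of 8 cases, against 57.3% of all genes. Of their probe sets 10 of 18 were called (55.6%, against 48.7% of all probe sets). The methyl-CpG readers Mbd1 (4.51), Mbd2 (5.05) and Zbtb33 (5.52) and the repair enzyme Mbd4 (1.71) were called, and the imprinting factor Zfp57 was not (0.12).

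In remodelling 6 of 6 members were called, against 57.3% of all genes, or 70.4% weighted to the probe set numbers of the 46 members. Of their probe sets 7 of 13 were called (53.8%, against 48.7% of all probe sets). The deacetylases Hdac1 and Hdac2 lay 5.09 ± 0.22 and 7.69 ± 0.21 log2 units above background. Without cross-hybridising probe sets Hdac2 lay 6.64 above. Chd4, the helicase of the NuRD deacetylase complex, had signals of 1299, 903 and 1021 and lay 2.72 ± 0.26 above, through 1 of 3 probe sets. With the mean over probe sets Chd4 lay at 0.30 and was not called.

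The SWI/SNF members oppose Polycomb at many loci. Smarca4, an ATPase of that complex, had signals of 11207, 10907 and 11117 and lay 6.10 ± 0.22 log2 units above background. Smarca2, the alternative ATPase, lay 6.27 ± 0.20 above, and Arid1a, a large DNA-binding subunit, had signals of 18246, 17621 and 17755 and lay 6.79 ± 0.22 above. Each of these 3 genes had 1 of 2 probe sets called.

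Further genes of these complexes were counted beside them, against 57.3% of all genes called. NuRD and deacetylase genes were called in 10 of 11 cases, including Mta1 (1.93), Mta2 (3.52), Mta3 (3.53) and Chd3 (4.12), with Hdac8 at 0.42 not called. Other SWI/SNF subunits were called in 13 of 17 cases, including Smarcb1 (4.27), Smarcc1 (5.83), Smarcc2 (3.82) and Smarcd2 (7.81). Smarcd1 (-0.15) and 3 subunits known from neurons or muscle, Actl6b (-2.50), Dpf1 (-0.99) and Dpf3 (-0.03), were not called. The probe sets called were 16 of 24 for the NuRD and deacetylase genes (66.7%). For the SWI/SNF subunits they were 26 of 40 (65%), against 48.7% of all probe sets.

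**Figure D3:**
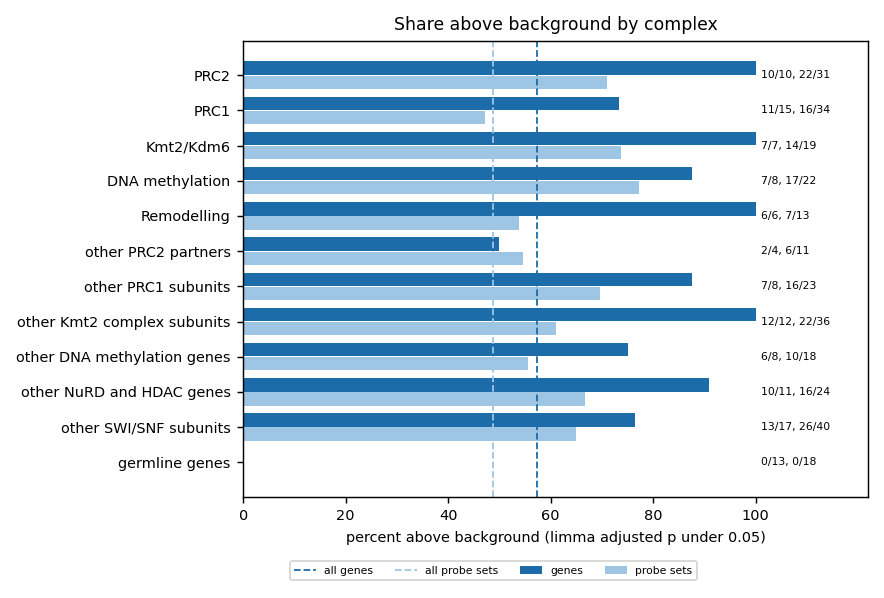
Percent of genes (dark bars) and of probe sets (light bars) above background in the member groups and in the lists of related genes, with counts at the right and dashed lines for all genes (57.3%) and all probe sets (48.7%). The dark bars of PRC2, Kmt2/Kdm6 and remodelling reach 100%, and the light bar of PRC1 (47.1%) ends left of the line for all probe sets.

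The spread of the members between arrays depended on how arrays were centred. With each array centred on its median over genes (signals of 470.1, 462.6 and 460.1 in replicates 1, 2 and 3), the median SD of log2 signal was 0.155 for the 41 members above background, against 0.163 for all genes above background. With each array centred on its median over all probe sets (142.72, 162.03 and 186.65), an alternative added after the data were seen, the medians were 0.214 for the members and 0.269 for all genes above background. On the first scale Dnmt1 had an SD of 0.012, Arid1a 0.014, Smarca4 0.018, Kmt2c 0.019 and Eed 0.029, and on the other scale these SDs were 0.206, 0.214, 0.20, 0.226 and 0.229. Without centring, also added after the data were seen, the SDs were 0.014, 0.026, 0.020, 0.035 and 0.038 in the same order. Their small SDs were thus lost with centring over all probe sets but not without centring. Ezh2 had SDs of 0.058 with centring over genes, 0.267 with centring over all probe sets and 0.074 without centring. The Dnmt1 SDs came from a probe set able to cross-hybridise. With centring over genes, the Dnmt1 probe set not so marked deviated from its mean by 0.14, -0.12 and -0.02 in replicates 1, 2 and 3.

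Suz12 had the largest SD among called members with centring over genes, at 0.39, and 0.233 with centring over all probe sets. Its deposited signals were highest in replicate 3. Other probe sets of Suz12 had signals of 14402, 15074 and 17928 and of 8654, 7387 and 14816. In deposited signals replicate 3 was thus the highest on all 3 of its brightest probe sets. With centring over all probe sets, the one with 14402, 15074 and 17928 was instead highest in replicate 1. Among 4243 genes with at least 2 called probe sets, the 2 brightest shared their highest array in 41.9% with centring over genes. The remaining called probe set was lowest in replicate 3 (947, 943 and 921). The Suz12 probe sets not called were highest in replicate 2 (176, 394 and 175, and 215, 295 and 180). The SE of a distance also holds the spread of the background levels, of which that of replicate 1 was the lowest, so it is no measure of the signal by itself.

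**Figure D4:**
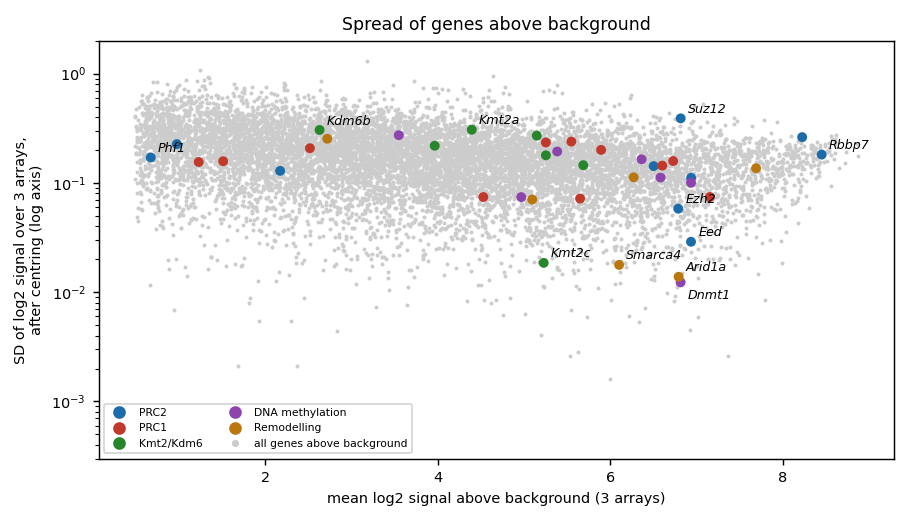
SD of log2 signal over the 3 arrays, each centred on its median over genes (log axis), against the mean distance above background (log2 units) for members, coloured by group, and for all genes above background in grey. Suz12 lies at 0.39 near the upper edge of genes of its brightness, and Dnmt1, Arid1a, Smarca4 and Kmt2c lie at 0.012 to 0.019 near the lower edge.

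The promoters of the members were rich in CG dinucleotides. A window was found for 41 members, and Pcgf1, Cbx2, Ash2l, Kdm6b and Hdac1 had none. The 41 members had 54 windows, and a gene with several windows took the highest CG count among them. The median count of CG in 300 bases was 30, with a range of 9 to 57 over members, against 18 for 14452 measured genes with a window. It was 23 for the 8505 of these genes above background and 7 for the 5947 not above it. Among members the lowest counts were those of Phc1 (9) and Pcgf2 (10), and the highest those of Tet2 (57) and Kmt2c (56).

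**Figure D5:**
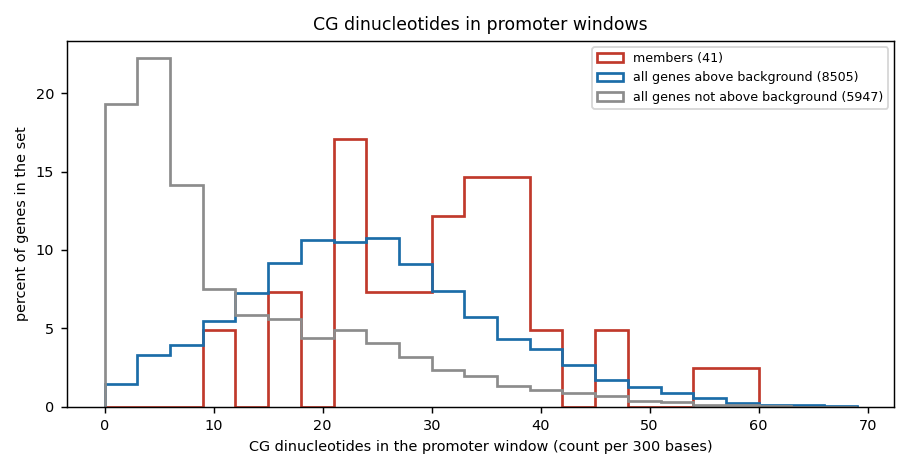
Percent of genes by count of CG dinucleotides in the promoter window (count per 300 bases). Shown are the members, all genes above background and all genes not above it. A gene with several windows took its highest count. The members have a median of 30, against 23 and 7 in the other sets.

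E2F words occurred in the windows of 7 of 41 members (17.1%), against 3.81% of all measured genes and 5.03% of those above background. The 7 were Ezh2, Suz12, Phf19, Dnmt1, Uhrf1, Hells and Arid1a, so 3 of 10 PRC2 genes, 3 of 8 DNA methylation genes and 1 of 5 remodelling genes had one. None of the 13 PRC1 or 5 Kmt2 and Kdm6 genes with a window did. The words also occurred in 2 of 12 germline genes counted below (16.7%), none of them called, and in 2 of 6 proliferation genes (33.3%). A gene counted if any of its windows held a word. Each of these words contains CG, and whether CG content accounts for the shares was not tested. In the sequences printed above, the word of Ezh2 begins at +3 from the annotated start, those of Dnmt1 at -219 and +33, that of Uhrf1 at -185 and that of Hells at -62. Both strands were searched, and the words do not overlap in these windows.

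Another 4 words were counted in the same windows on both strands. CCAAT was found in 36.6% of members, against 42.0% of all measured genes, and the E-box CACGTG in 22.0%, against 10.2%. The Ets word CCGGAAG was found in 4.88%, against 15.0% and 20.9%, and the Nrf1 word GCATGCGC in 9.76%, against 4.68% and 6.42%. The words were chosen after a first look at the promoters of the members, so these shares describe the windows and are no test. A match is not a bound site, and the absence of one says only that these letters are not in the window.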

How the data were processed

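RNA was measured in 3 samples of 1 group on Affymetrix arrays, after 2 rounds of amplification and biotin labelling. The authors deposited linear 1-colour intensity values, 1 for each probe set on each array, made with GCOS per the submitters' processing notes. Its version is not given in the sources used here, nor are the signal algorithm and the scaling. The trimmed mean of each array was 1500.01, so arrays had been scaled alike before they were deposited; median signals over all probe sets were 142.72, 162.03 and 186.65. All values were above 0, and log2 was taken here from the deposited intensity without a pseudocount.

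Of 45101 probe sets, 64 controls, 932 with several symbols and 9160 with none were left out, among them 1 that names Kdm6b with another gene. Entrez IDs of 34741 probe sets matched RefSeq (GRCm38.p6), and no symbol changed. Detection used limma 3.58.1 (R 4.3.3; lmFit with an intercept, eBayes, prior df 3.88, Benjamini-Hochberg over all genes or all probe sets, threshold 0.05) and was tested on simulated data. The smallest distance called was 0.49 log2 units, and the number of arrays limits precision. Promoters were read with Python 3.11.15. The members and lists were chosen with earlier results of these data known. Named are all 46 members, the first 4 called and the first 4 not called of each related list, and 8 marker genes. Asz1 and the markers Gdnf, Sall1, Itga8, Eya1, Epcam, Krt18, Wnt11, Tek and Emcn were named after their values were seen. Genes of the related lists without a value under these rules were not analysed here. Alternatives were other background levels, quantile normalization, a filter on dim probe sets, other call rules, other choices of probe set and leaving out each replicate.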

Additional observations from a re-analysis of the deposited data

How the results depend on the processing

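No paired analysis was possible because the series holds 1 group. Over 13 alternative settings, 35 of 46 members kept their call and the sign of their distance in every one, 32 of them above background. Members called numbered 33 with Bonferroni adjustment, 35 with the mean over probe sets, 37 with a level from genes restricted to other tissues, 39 at the 99th percentile and 40 to 41 without 1 replicate. With Bonferroni adjustment the calls fell to 5808 genes, 4674 probe sets and 40 member probe sets. With the mean over probe sets 7 of 15 PRC1 members were called. Calls lost there were Rnf2 (0.49), Pcgf5 (0.35), Cbx8 (0.32) and Chd4 (0.30). There the sign turned for Ezh1 (-0.071), Cbx2 (-0.069) and Ring1 (0.15). Dim probe sets enter the mean in this setting, and the background level is taken from such means too. Ring1 has 1 probe set, so only the level moved its distance. The sign also turned at the 90th percentile for Ring1 (0.30) and Pcgf2 (0.019), and with the tissue-restricted level for Phf1 (-0.64), Phf19 (-0.34) and Pcgf5 (-0.088), where Cbx8 (0.20) lost its call. Phf1 (0.19) and Phf19 (0.49) lost theirs at the 99th percentile. Without 1 replicate Ring1 ranged from -0.49 to 0.53, the highest without replicate 2, and Phf1 from 0.49 to 0.87. The median SD of called members ranged from 0.143 to 0.214 over the alternatives for spread, of which centring over all probe sets and no centring (0.146) were added after the data were seen. Tet3 was not tested when the lowest 25% of mean signals were left out, and the mean over probe sets gives no probe set count. Precision is limited by 3 arrays and by a level drawn from 72 genes.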

Other observations

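Germline genes that DNA methylation is known to silence in somatic cells were counted beside the enzymes, as values outside the complexes. None of the 13 genes and none of their 18 probe sets was above background by limma, and no gene reached an unadjusted p of 0.05, against 57.3% of all genes and 48.7% of all probe sets. The RNA-binding protein Dazl lay at -2.64 log2 units, the germline helicase Ddx4 at -1.39, Mael of the piRNA pathway at -3.61 and the synaptonemal protein Sycp1 at -0.97. Asz1, named after its value was seen, was the highest of the 13, at 0.15 (limma adjusted p = 0.421), with signals of 150, 179 and 212. Their promoter windows had a median of 22.5 CG dinucleotides in 12 genes with a window, against 7 for all genes not above background. Methylation itself was not measured, so whether these genes were methylated was not tested.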
